A study of Mus musculus with 12 samples.

Results

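The myeloid C-type lectin receptors described here are 8 genes, Clec4n, Clec7a, Clec4d, Clec4e, Clec4a2, Clec5a, Clec12a and Clec2d, out of 29737 genes in the table of read counts. The 8 genes were chosen by name, with the levels of Clec4n and Clec7a already known to be lower in neutrophils given tauro-β-muricholic acid (Tβ-MCA) than in the control, so every value of these genes in that comparison is a description and carries no test. Wild-type (WT) mouse bone marrow neutrophils, selected as Ly6G+ cells with magnetic beads, were cultured for 24 h with a bile acid or with PBS as the control. For the isolation, the methods of the study describe a separating medium followed by an enrichment kit, and do not mention Ly6G at that step. There were 3 samples in each of 4 groups: PBS (replicates 3, 5 and 6), taurocholic acid (TCA, 200 μM), glycocholic acid (GCA, 200 μM) and Tβ-MCA, each with replicates 3, 4 and 5. The labels put the Tβ-MCA dose at 10 μM, whereas the methods of the study put it at 200 μM, so the readouts of Tβ-MCA are set beside those of TCA and GCA without a comparison. The methods of the study name female C57BL/6 mice aged 4 to 6 weeks. The number of mice is not stated, and nothing says that replicates came from separate animals, so p-values measure only the spread between these samples, which may be technical.

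C-type lectin receptors are surface proteins of myeloid cells that bind sugars, glycolipids or ligands from damaged cells through a lectin-like domain. Activating members recruit the kinase Syk, either through a motif in their own tail or through the adaptors FcRγ (Fcer1g), DAP12 (Tyrobp) and DAP10 (Hcst), and then signal through the complex of CARD9, BCL10 and MALT1 to NF-κB. Inhibitory members carry a motif that recruits the phosphatases SHP-1 (Ptpn6) and SHP-2 (Ptpn11). In neutrophils these receptors are known for the uptake and killing of fungi and for the release of chemokines.

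The level per length, given as RPKM (reads scaled by exon length and by the counted reads of the sample), spread widely over the receptors. In the PBS group, Clec4d had the highest mean at 109 RPKM ± 15.7 (SD, n = 3). Clec5a at 58.2 ± 5.34 and Clec12a at 55.9 ± 1.67 followed, and their ranges overlapped. Clec4e at 32.7 ± 0.952 and Clec4a2 at 27.9 ± 0.481 came next, with ranges that did not touch. Clec7a at 8.75 ± 1.35 and Clec4n at 7.46 ± 1.11 overlapped each other, and Clec2d was the lowest at 2.52 ± 0.414. Thus Clec4d, Clec5a and Clec12a stood above 96.5% to 98.2% of the genes in the table in PBS, whereas Clec2d stood above 69.2%. TCA and GCA kept Clec4d first and Clec2d last. In the Tβ-MCA group Clec4n was last at 2.30 RPKM ± 1.80, with a range that overlapped that of Clec2d, and Clec4e stood ahead of Clec5a, with ranges that overlapped as well.

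**Figure D1:**
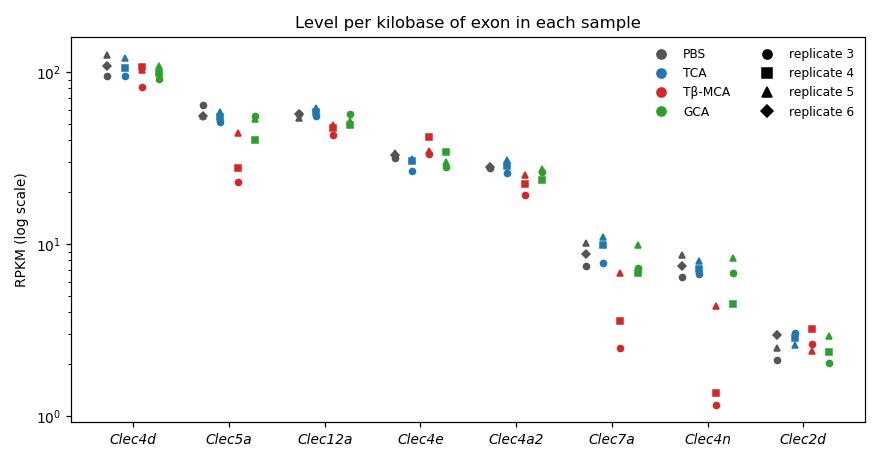
Each point is 1 sample, the horizontal axis lists the 8 genes in the order of their PBS means, and the vertical axis gives RPKM on a log scale. Clec4d led in all 4 groups, and 2 of the 3 Tβ-MCA samples of Clec4n lay below every sample of Clec2d.

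Counts summed to between 32757389 and 41375925 per sample, and levels are given below as CPM, counts scaled by library size with TMM factors. In the receptors, Tβ-MCA replicate 5 stood apart from its group. It lay between the other Tβ-MCA samples and PBS for Clec4n, Clec7a, Clec5a, Clec4a2 and Clec12a. GCA replicate 4 was the lowest GCA sample for 5 of the 8 receptors. PBS replicate 3 was likewise lowest in its group for 5, and TCA replicate 3 and Tβ-MCA replicate 3 for 7 each. The count therefore does not single out GCA replicate 4. In edgeR's quasi-likelihood test of Tβ-MCA against PBS over all genes, 745 genes were higher and 533 lower at a Benjamini-Hochberg adjusted p under 0.05. Under scaling by the total count the split was 1013 higher and 395 lower, with DESeq2 it was 1023 and 1012, and without Tβ-MCA replicate 5 it was 1459 and 1617. No gene was called when PBS replicate 3, PBS replicate 5, Tβ-MCA replicate 3 or Tβ-MCA replicate 4 was left out, with 2875 to 3599 genes at an unadjusted p under 0.05, and 168 genes were called without PBS replicate 6.

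Clec4n encodes Dectin-2, a receptor for fungal mannans that signals through FcRγ. Its level was 9.29, 12.3 and 10.5 CPM in the PBS samples and 1.62, 1.86 and 6.13 CPM in Tβ-MCA replicates 3, 4 and 5. These values rest on 324 to 419 reads per PBS sample and on 54, 69 and 229 reads per Tβ-MCA sample. Hence all 3 Tβ-MCA samples lay below all PBS samples, with replicate 5 well above the other two. The fitted log2 fold change was -1.73 (SE 0.44), and it was -2.62 (SE 0.25) without replicate 5. Relative to the PBS mean, replicates 3, 4 and 5 held 15.1%, 17.4% and 57.2% of the level.

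Clec7a encodes Dectin-1, the receptor for β-glucan of fungal cell walls, which engages Syk through its own tail. It read 20.1, 27.0 and 23.0 CPM with PBS and 6.37, 9.05 and 17.7 CPM with Tβ-MCA. The gene lies at chr6:129461591-129472779 on the minus strand. The groups did not overlap, and replicate 5 was again the sample nearest to PBS. The log2 fold change was -1.08 (SE 0.33), and -1.60 (SE 0.22) without replicate 5.

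Clec5a encodes MDL-1, which pairs with DAP12 and DAP10 and takes part in inflammatory responses to viruses. Its level was 253, 214 and 212 CPM with PBS against 86.1, 103 and 167 CPM with Tβ-MCA. Its Tβ-MCA samples had the same order as in Clec4n and Clec7a, with a log2 fold change of -0.93 (SE 0.23), or -1.26 (SE 0.15) without replicate 5.

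Clec4d (MCL) and Clec4e (Mincle) encode partner receptors for the mycobacterial glycolipid trehalose dimycolate, and both depend on FcRγ. Clec4d read 154, 203 and 173 CPM with PBS and 128, 165 and 161 CPM with Tβ-MCA. Clec4e read 161, 168 and 163 CPM with PBS and 163, 201 and 170 CPM with Tβ-MCA. In both genes the groups overlapped, with log2 fold changes of -0.22 (SE 0.12) for Clec4d and 0.12 (SE 0.08) for Clec4e. The levels of Clec4n and Clec4d therefore moved apart within a sample. The ratio of Clec4d to Clec4n in RPKM was 14.6 to 14.7 in the PBS samples and 14.1 to 15.1 in the TCA samples. It was 70.5, 78.7 and 23.4 in Tβ-MCA replicates 3, 4 and 5, and 13.4, 22.0 and 13.1 in the GCA samples.

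Clec4a2 (DCIR) and Clec12a (MICL, a receptor for uric acid crystals) encode inhibitory receptors. Clec4a2 read 82.2, 83.9 and 82.0 CPM with PBS and 55.4, 63.3 and 72.0 CPM with Tβ-MCA. Clec12a read 321, 301 and 316 CPM with PBS and 231, 252 and 266 CPM with Tβ-MCA. The groups did not overlap in either gene, although the differences were smaller than in Clec4n, with log2 fold changes of -0.38 (SE 0.09) for Clec4a2 and -0.32 (SE 0.07) for Clec12a. Clec2d, whose product is a ligand of an inhibitory receptor on natural killer cells, read 2.64, 3.03 and 3.59 CPM with PBS and 3.11, 3.78 and 2.86 CPM with Tβ-MCA. Its groups overlapped.

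In all, 5 of the 8 receptors had every Tβ-MCA sample below every PBS sample, which held for 12.8% of the 16761 genes tested. The median log2 fold change over the 8 was -0.35 against 0.00411 over all genes tested. As the genes were chosen with this contrast known, nothing is read from that count. In bulk samples, fewer cells of a type and less RNA per cell cannot be told apart.

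**Figure D2:**
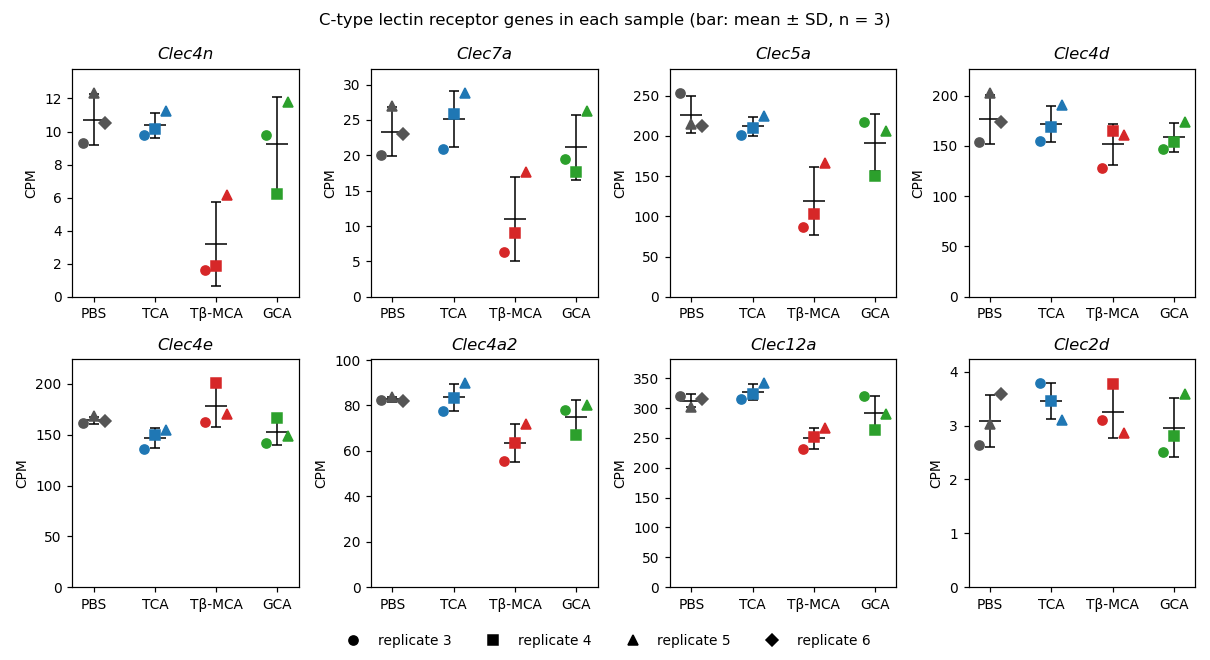
Each panel is 1 gene with its CPM on a linear axis from 0, points are samples with the shape giving the replicate number, and bars are the mean ± SD of 3 samples. Clec4n lay at 1.62, 1.86 and 6.13 CPM in the Tβ-MCA group, whereas Clec4e and Clec2d overlapped between the Tβ-MCA and PBS groups.

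Promoter sequences of some members with different patterns are shown. Clec7a and Clec5a were lower in every Tβ-MCA sample than in every PBS sample, and Clec4d and Clec4e were not. Clec4n, Clec4a2 and Clec12a were also lower in every Tβ-MCA sample, and their windows are not shown. Each is the stretch of 250 bases before the gene's start from RefSeq (GRCm38.p6), 5′ to 3′ on the strand of the gene, the first of 2 entries being taken for Clec7a, with GAGGAA or its reverse complement TTCCTC in capitals. These letters are a core bound by PU.1 (Spi1), the Ets family factor of myeloid cells.
Clec7a (chr6:129472780-129473029, minus strand): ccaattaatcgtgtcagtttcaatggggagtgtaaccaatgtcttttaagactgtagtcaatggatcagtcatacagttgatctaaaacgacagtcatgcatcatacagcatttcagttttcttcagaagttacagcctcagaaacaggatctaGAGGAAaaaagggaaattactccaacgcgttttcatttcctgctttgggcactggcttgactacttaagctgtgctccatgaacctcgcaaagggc
Clec5a (chr6:40585806-40586055, minus strand): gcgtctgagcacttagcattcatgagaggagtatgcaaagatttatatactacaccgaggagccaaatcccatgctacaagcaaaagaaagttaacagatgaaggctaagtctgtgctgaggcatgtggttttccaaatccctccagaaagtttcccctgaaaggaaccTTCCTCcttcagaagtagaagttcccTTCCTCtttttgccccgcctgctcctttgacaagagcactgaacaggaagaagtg
Clec4d (chr6:123261857-123262106, plus strand): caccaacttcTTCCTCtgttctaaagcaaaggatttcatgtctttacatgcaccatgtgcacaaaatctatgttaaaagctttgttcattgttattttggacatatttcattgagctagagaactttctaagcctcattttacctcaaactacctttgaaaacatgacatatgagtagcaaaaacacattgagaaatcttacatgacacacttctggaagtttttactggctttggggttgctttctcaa
Clec4e (chr6:123289872-123290121, minus strand): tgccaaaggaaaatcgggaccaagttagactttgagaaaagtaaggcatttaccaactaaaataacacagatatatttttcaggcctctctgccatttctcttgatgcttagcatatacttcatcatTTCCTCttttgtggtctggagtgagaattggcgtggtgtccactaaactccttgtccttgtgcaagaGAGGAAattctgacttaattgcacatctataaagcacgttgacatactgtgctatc
Clec7a held 1 match whose first base lay 96 bases before the start, and Clec5a held 2, at 81 and 55 bases. Clec4d held 1 match at 240 bases and Clec4e held 2, at 123 and 56 bases. The table gave windows for 7 of the 8 receptors, 5 of which held a match on either strand (Clec12a being the fifth, and Clec4a2 and Clec2d holding none), compared with 23.3% of all 32851 promoter windows of this length. Among the windows shown, both patterns thus had the letters, whereas Clec4a2, also lower in every Tβ-MCA sample, did not. The RefSeq starts behind the windows of Clec5a, Clec4a2 and Clec12a lie inside the genes as counted here. A match describes the sequence and is not evidence of a bound site.

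All 8 genes lie on chromosome 6 of GRCm38, at the positions that GENCODE vM21 also gives. Clec4a2, Clec4n, Clec4d and Clec4e sit within 183 kb. Clec2d, Clec12a and Clec7a sit within 292 kb some 5.89 Mb further on, and Clec5a lies alone, 82.5 Mb before Clec4a2. No exon of a receptor overlapped an exon of another gene in the table on either strand. Within the stretch of 183 kb, Clec4n (chr6:123229843-123247021, plus strand) lies between the lectin genes Clec4b2, which was lower with Tβ-MCA, and Clec4d, whose groups overlapped. Of 19 other genes within 50 kb of a receptor, 10 were tested, and 3 fell with Tβ-MCA, where 3.18% of all genes tested were called lower. These were Clec4b2, Clec1b and Olr1, themselves lectin genes of the next list, while no neighbour rose. The count was 6 without Tβ-MCA replicate 5, where 9.44% of all genes were called lower. It was 1 under scaling by the total count and 0 when any of the other 5 samples of the 2 groups was left out.

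Other C-type lectin genes were taken as a list of 45, of which 39 were in the table and 27 were tested. With Tβ-MCA, 4 fell and 1 rose, against 3.18% of all genes called lower and 4.44% called higher. The median log2 fold change of the 27 was -0.69. Clec4b2, a relative of the DCIR group, read 11.7, 8.50 and 8.98 CPM with PBS and 3.56, 3.54 and 6.72 CPM with Tβ-MCA, a log2 fold change of -1.08 (SE 0.25, edgeR adjusted p = 0.0303). It repeated the order of Clec4n, with replicate 5 the highest of the Tβ-MCA samples. Clec10a, the galactose-binding lectin MGL1, fell by 0.62 on the log2 scale (SE 0.17, edgeR adjusted p = 0.0395). Clec1b, the podoplanin receptor CLEC-2, fell by 0.58 (SE 0.16, edgeR adjusted p = 0.0429), and Olr1, the receptor LOX-1 for oxidised lipoprotein, fell by 0.54 (SE 0.16, edgeR adjusted p = 0.0473). Without Tβ-MCA replicate 5, 13 of the list fell and 1 rose, where 9.44% of all genes were called lower and 8.52% higher, and the 4 lower genes named were among the 13. Leaving out any other sample of the 2 groups left none. Members of this family share sequence, and how reads common to relatives were assigned was not tested.

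None of the 3 adaptors that carry the signal passed edgeR's test with Tβ-MCA, with 0 at an unadjusted p under 0.05 and 0 called by DESeq2 or limma. Fcer1g read 189, 244 and 231 CPM with PBS and 195, 225 and 211 CPM with Tβ-MCA, Tyrobp had a log2 fold change of 0.05 (SE 0.09) and Hcst of 0.03 (SE 0.13). Thus the transcript of the FcRγ chain overlapped between groups in the same samples in which Clec4n, its partner, did not. Of 15 genes of the Src and Syk kinase step, 2 fell and none rose, against 3.18% of all genes tested called lower and 4.44% called higher, shares that also apply to the lists that follow. Among them was the Src family kinase Fgr, which fell by 0.33 on the log2 scale (SE 0.08, edgeR adjusted p = 0.0317). Syk itself read 666, 666 and 682 CPM with PBS and 786, 788 and 724 CPM with Tβ-MCA, and its edgeR adjusted p was 0.0601, or 0.0181 without replicate 5, and DESeq2 and limma both called it higher.

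In the CARD9 complex, 1 of 5 genes rose. Malt1, the paracaspase of the complex, went from 48.3, 44.1 and 52.3 CPM to 61.7, 65.1 and 57.8 CPM (log2 fold change 0.35, SE 0.09, edgeR adjusted p = 0.0320). Card9 had a log2 fold change of 0.22 (SE 0.07) with an edgeR adjusted p of 0.0756, or 0.0139 without replicate 5. Bcl10 went the other way, with a log2 fold change of -0.38 (SE 0.11). Its edgeR adjusted p was 0.0548, or 0.0107 without replicate 5, and DESeq2 called it lower (adjusted p = 0.0164). The complex therefore did not move in 1 direction. Of 8 phosphatases and ligases listed here as damping signalling, 3 fell, against 3.18% of all genes, and all are phosphatases. What their levels mean for signalling was not tested. Ptprj (CD148) fell by 0.38 (SE 0.09, edgeR adjusted p = 0.0251), Ptpn11 by 0.33 (SE 0.09, edgeR adjusted p = 0.0338) and Ptpn6 by 0.29 (SE 0.07, edgeR adjusted p = 0.0271) on the log2 scale. Ptpn6 was the most abundant of these, at 1101, 1132 and 1071 CPM with PBS and 848, 869 and 979 CPM with Tβ-MCA, and its groups did not overlap. SHP-1 and SHP-2 also act in activating pathways.

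None of the 6 genes of NFAT and calcineurin and none of the 8 partners in fungal recognition passed the edgeR test, with 0 and 3 of them at an unadjusted p under 0.05 and 0 and 2 called by DESeq2. In the NF-κB arm, 1 of 8 fell, namely Nfkbia, the NF-κB inhibitor IκBα, by 0.26 on the log2 scale (SE 0.07, edgeR adjusted p = 0.0347). Among 15 products induced through the receptors, 13 were tested, 4 fell and none rose, against 3.18% and 4.44% of all genes. Cxcl1, a chemokine that attracts neutrophils, read 1.03, 1.18 and 0.809 CPM with PBS and 0.299, 0.486 and 0.321 CPM with Tβ-MCA (log2 fold change -1.43, SE 0.42, edgeR adjusted p = 0.0484). The chemokine Ccl3 was far more abundant, at 92.1, 113 and 93.6 CPM against 63.9, 65.5 and 79.6 CPM (log2 fold change -0.51, SE 0.10, edgeR adjusted p = 0.0208). Ccl4 fell by 0.88 (SE 0.23, edgeR adjusted p = 0.0358) and the inflammasome sensor Nlrp3 by 0.57 on the log2 scale (SE 0.13, edgeR adjusted p = 0.0278). In each of the 4 genes no Tβ-MCA sample reached the lowest PBS sample.

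Over the 66 tested signalling genes, 10 fell and 1 rose, against 3.18% and 4.44% of all genes tested, with a median log2 fold change of -0.11. The counts were 19 lower and 5 higher without Tβ-MCA replicate 5, against 9.44% and 8.52% of all genes, and 9 of the 10 lower genes were among those 19, the exception being Cxcl1. Without PBS replicate 6, Ccl3 alone remained called, and without any other sample of the 2 groups none did. A fit of the 2 groups alone called none.

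**Figure D3:**
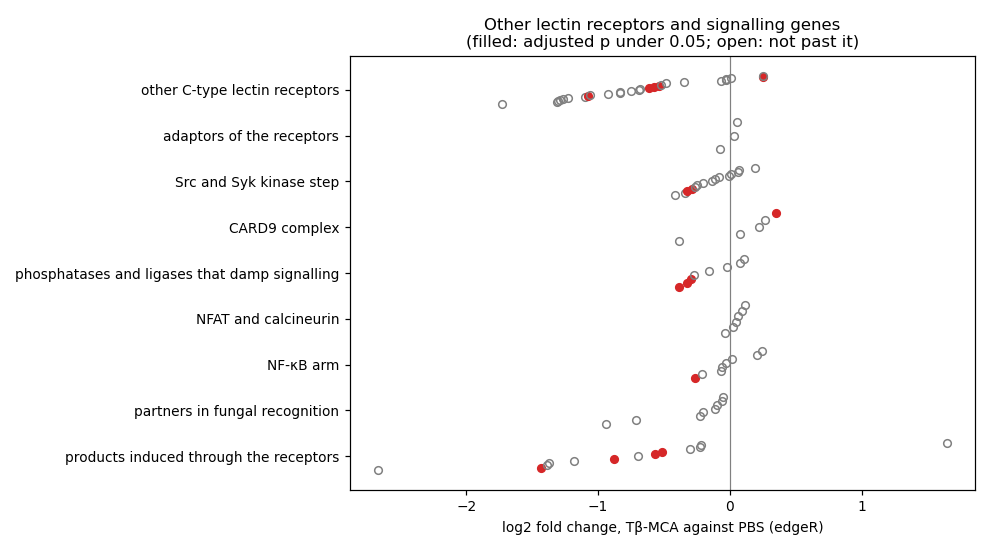
Each point is 1 tested gene, placed by its edgeR log2 fold change of Tβ-MCA against PBS on the horizontal axis and by its list on the vertical axis, and filled points passed an adjusted p of 0.05. The 4 filled points of the other lectins below 0 are Clec4b2, Clec10a, Clec1b and Olr1, and the 3 adaptors sit near 0.

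Markers of cell types moved in the same samples. The neutrophil marker Ly6g read 21.4, 18.01 and 17.8 CPM with PBS and 7.54, 8.32 and 12.9 CPM with Tβ-MCA (log2 fold change -0.99, SE 0.18, edgeR adjusted p = 0.0208). The 11 neutrophil markers summed to between 35279 and 42448 CPM with PBS and between 27697 and 32253 CPM with Tβ-MCA. S100a9 alone gave 21325 to 25502 CPM of this sum with PBS. Of the 11, 5 fell, against 3.18% of all genes tested. Without Tβ-MCA replicate 5, 9 of the 11 were called lower against 9.44% of all genes, and with all samples DESeq2 called 10 and limma 3. The monocyte chemokine receptor gene Ccr2 read 51.2, 37.3 and 37.9 CPM with PBS and 2.03, 2.70 and 29.2 CPM with Tβ-MCA, and its edgeR adjusted p was 0.206, or 4.32e-05 without replicate 5. Csf1r, the receptor for macrophage colony-stimulating factor, read 215, 262 and 271 CPM with PBS and 146, 178 and 235 CPM with Tβ-MCA (edgeR adjusted p = 0.241).

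The 15 monocyte and macrophage markers summed to between 2553 and 2801 CPM with PBS and between 1427 and 2427 CPM with Tβ-MCA. All 15 had a log2 fold change below 0, with a median of -0.85 against 0.00411 over all genes tested. None passed edgeR's adjusted threshold with replicate 5 (7 had an unadjusted p under 0.05, and DESeq2 called 5 and limma 3). Without replicate 5, 12 did, where 9.44% of all genes were called lower. Clec4n and Clec7a had the order of samples seen in Ccr2, with Tβ-MCA replicates 3 and 4 lowest and replicate 5 nearest to PBS. This order was not particular to monocyte genes. The neutrophil marker Ly6g had it too, as did Mmp9 (361, 381 and 578 CPM in Tβ-MCA replicates 3, 4 and 5). Of the 11 neutrophil markers, Csf3r alone (949, 1106 and 1035 CPM in the same replicates) did not have it. The part of monocytes and macrophages in the receptor levels was not tested. Summed markers of eosinophils lay at 151 to 261 CPM with PBS and 56.8 to 134 CPM with Tβ-MCA, and those of dendritic cells at 59.2 to 64.3 CPM and 34.5 to 55.4 CPM. Prg2 alone gave 108 to 181 CPM of the eosinophil sum with PBS. Of the single genes, 1 of 7 eosinophil, 1 of 6 tested dendritic cell and 1 of 6 tested B cell markers were called lower, against 3.18% of all genes tested. Of those 6 dendritic cell markers, 4 had a log2 fold change below 0. Summed markers of basophils and mast cells (33.2 to 63.5 CPM with PBS and 30.6 to 55.4 CPM with Tβ-MCA) and of B cells (40.7 to 56.7 CPM and 38.0 to 42.3 CPM) overlapped between these groups. Ighm alone gave 33.2 to 44.1 CPM of the B cell sum with PBS. The B cell marker called lower was Cd79a, at 3.70, 3.47 and 3.48 CPM with PBS and 1.76, 1.86 and 2.44 CPM with Tβ-MCA (edgeR adjusted p = 0.0326). T and NK cell markers summed to at most 3.09 CPM and erythroid markers to at most 3.22 CPM in any sample.

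**Figure D4:**
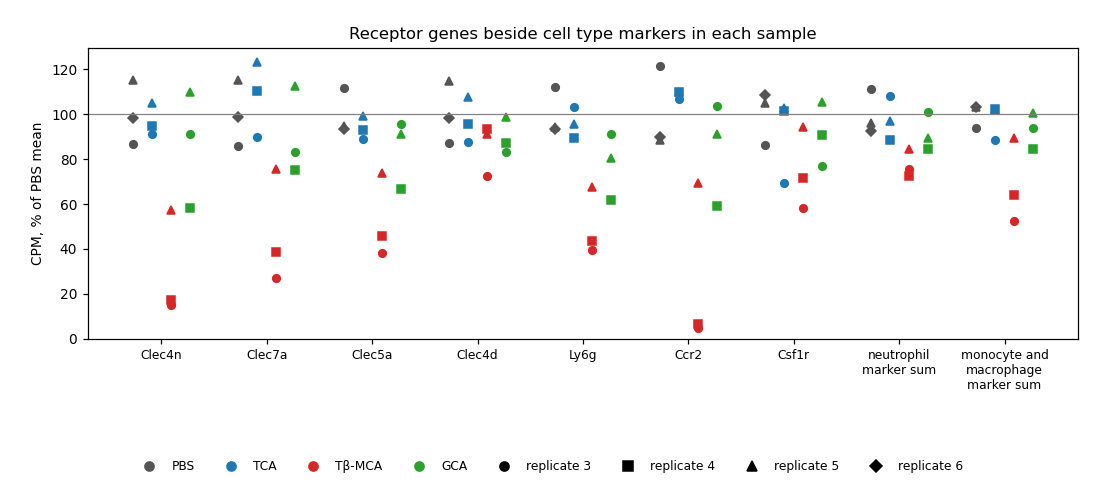
Each point is 1 sample, and the vertical axis gives its CPM as a percentage of the PBS mean for 4 receptor genes, 3 marker genes and 2 summed marker lists. Tβ-MCA replicate 5 stood at 57.2% for Clec4n and 69.4% for Ccr2, whereas replicates 3 and 4 stood at 15.1% and 17.4% for Clec4n and at 4.83% and 6.41% for Ccr2.

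The genes whose log2 CPM was most like that of Clec4n over the 12 samples were Fam43a, Plxnb2, Nlrp3, Mir22hg and Amica1, with Pearson r between 0.989 and 0.995. Plxnb2, a semaphorin receptor, read 14.9, 15.1 and 34.4 CPM in the Tβ-MCA samples and 42.3 ± 2.30 CPM (SD, n = 3) with PBS. For Clec7a they were Il13ra1, S100a10, Zfp36l1, Klra2 and S100a6, with r between 0.988 and 0.992. The calcium-binding protein gene S100a6 read 54.6, 74.7 and 113 CPM with Tβ-MCA and 147 ± 11.99 CPM with PBS. These points share libraries and treatments, so r describes the likeness only.

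TCA and GCA were each compared with PBS to ask whether the cholic acid conjugates went with a change in the receptors. With TCA, Clec4n read 9.77, 10.1 and 11.2 CPM and Clec7a read 20.9, 25.8 and 28.8 CPM, and both overlapped PBS. No receptor was called in edgeR's test of TCA against PBS (0 of 8, with 0 also at an unadjusted p under 0.05 and 0 with DESeq2 or limma), where 0% of all genes tested were called and 546 had an unadjusted p under 0.05. The interval of the log2 fold change for Clec4n ran from -0.97 to 0.88 and that for Clec7a from -0.62 to 0.83, so changes of up to about this size were not resolved in the fit of all 4 groups. In a fit of TCA and PBS alone, without the spread of the Tβ-MCA samples, the intervals were -0.31 to 0.22 for Clec4n and -0.19 to 0.40 for Clec7a, with SEs of 0.12 and 0.13 in place of 0.41 and 0.32. Clec12a (-0.09 to 0.22), Clec4a2 (-0.18 to 0.21) and Clec4d (-0.30 to 0.21) were bounded more closely. In 1 of the 8 receptors, Clec4e, every TCA sample (136, 149 and 155 CPM) lay below every PBS sample, as did 4.76% of genes, and its interval ran from -0.34 to 0.01, or from -0.30 to -0.03 in the 2 groups alone (adjusted p = 0.9993 in edgeR).

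With GCA, the receptors were again not called (0 of 8 in edgeR's test, 0 at an unadjusted p under 0.05 and 0 with DESeq2 or limma), and 0% of all genes tested were called, with 591 at an unadjusted p under 0.05. This comparison shares its PBS samples with the previous one. Clec4n read 9.77, 6.22 and 11.8 CPM, Clec7a 19.4, 17.6 and 26.3 CPM and Clec5a 217, 151 and 206 CPM in replicates 3, 4 and 5. Replicate 4 was the low sample in all 3 genes and stood at 58.0% of the PBS mean for Clec4n. It was also the lowest GCA sample for Ccr2 (24.9 CPM) and Ly6g (11.7 CPM), and the part of this in the receptor values was not tested. The log2 fold change of Clec4n was -0.21 (95% interval -1.14 to 0.72) with all samples, with an interval of -0.68 to 0.27 in the fit of GCA and PBS alone, and 0.01 without GCA replicate 4. For Clec5a it was -0.24 (-0.75 to 0.27, or -0.54 to 0.06 in the 2 groups alone), and -0.10 without that sample. In Clec4a2 alone every GCA sample (78.1, 67.0 and 80.3 CPM) lay below every PBS sample, as did 4.83% of genes.

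GCA and TCA are conjugates of the same cholic acid with glycine and with taurine, given at the same dose and for the same time, and the difference between them does not use the samples that chose the genes, although those samples enter the shared spread behind its interval and p. In these 8 comparisons no receptor passed edgeR's test, with p-values adjusted over the 16761 genes tested, and 0% of all genes tested were called, with 412 at an unadjusted p under 0.05 and 0 with DESeq2. All 8 receptors overlapped between the 2 acids, and every GCA sample lay below every TCA sample in 4.19% of genes. Of the 8, Clec12a alone had an unadjusted p under 0.05 in edgeR's test, with an adjusted p of 0.9998. It read 321, 264 and 290 CPM with GCA and 315, 324 and 341 CPM with TCA, a log2 difference of -0.16 (95% interval -0.32 to -0.01). The interval was narrow for Clec4e (-0.12 to 0.23), Clec4a2 (-0.35 to 0.04) and Clec4d (-0.37 to 0.14). It was wider for Clec4n (-1.09 to 0.77) and Clec7a (-0.98 to 0.47), and narrowed to -0.60 to 0.27 and -0.62 to 0.11 in a fit of the 2 acids alone. A level 1.5-fold lower with the glycine than with the taurine conjugate lay within the interval of these genes in both fits.

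**Figure D5:**
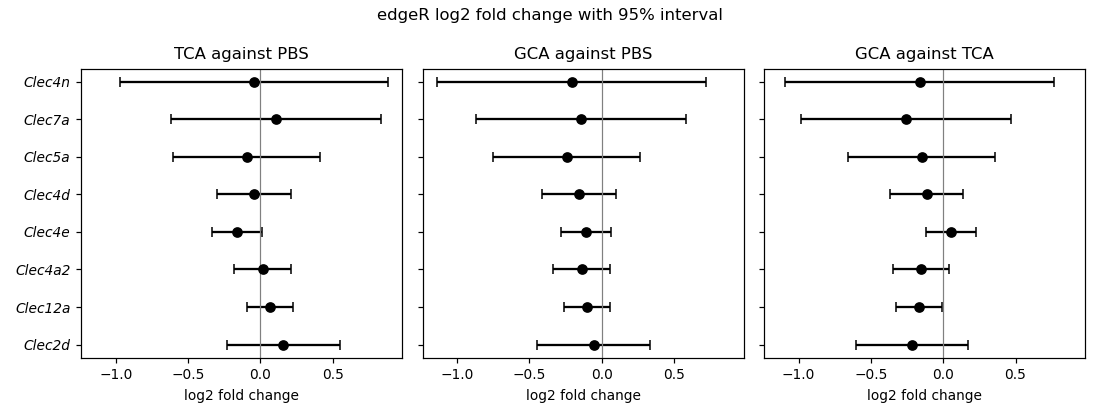
Points are edgeR log2 fold changes of the 8 receptors in 3 comparisons and bars are 95% intervals from the fit of all 4 groups, with 0 marked by a line. The bars of Clec4n, Clec7a and Clec5a are the widest, and the bar of Clec12a in GCA against TCA, from -0.32 to -0.01, is the one that does not cross 0 before adjustment.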

How the data were processed

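RNA of 12 neutrophil samples was sequenced from stranded libraries. Per the labels, the authors trimmed reads with Trimmomatic 0.36 and aligned them to GRCm38 (mm10) with STAR 2.5.3a. They deposited raw counts per gene from featureCounts (Subread 1.5.1), the length of merged exons, and RPKM, which equals counts scaled by exon length and total count. Columns of the GCA samples are headed GA in both tables. The strand setting of the counting is not given in the sources used here. Counts were tested in edgeR 4.0.16 (R 4.3.3): TMM, a filter on low counts (16761 of 29737 genes kept, all 8 receptors among them), and a robust quasi-likelihood fit over the 4 groups, called at a Benjamini-Hochberg adjusted p under 0.05. Intervals are 95% from the moderated error. DESeq2 1.42.0, limma 3.58.1 on log2(RPKM + 1) with a mean of at least 0.5 RPKM, total-count scaling, no filter, the 2 groups alone, a replicate block and left-out samples were alternatives. The main edgeR fit alone was tested on simulated data, for the mean log2 fold change of Tβ-MCA against PBS. The receptors and all gene lists were chosen with earlier results of these data known. Named genes were the receptors, the list genes past the threshold by lowest p (at most 12 and 6), Ly6g, Ccr2 and Csf1r, and the 5 genes most like Clec4n or Clec7a; others were named after their values were seen. Some list genes that entered the counts are not reported here by name.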

Additional observations from a re-analysis of the deposited data

How the results depend on the processing

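The median log2 fold change of the receptors with Tβ-MCA and the values of Clec4n and Clec7a kept their sign under every alternative. Clec4n ran from -2.62 to -1.42 and Clec7a from -1.60 to -0.80 with 1 sample left out. The calls in the gene lists depended on the samples and on the shared spread. Signalling genes lower with Tβ-MCA numbered 10, and 17 with DESeq2, 18 without the filter, 5 with limma, 0 in the 2 groups alone, 4 by unadjusted p and a fold change of 2, and 0 to 19 with 1 sample left out. Signalling genes higher numbered 1, and 4 by total count, 3 with DESeq2, 2 without the filter, 2 with limma, 0 in the 2 groups alone, and 0 to 5 with 1 left out. Other lectin genes lower numbered 4, and 2 by total count, 11 without the filter, 1 with limma, 0 in the 2 groups alone, 7 by unadjusted p and fold change, and 0 to 13 with 1 left out. Other lectin genes higher numbered 1, and 0 in the 2 groups alone, 0 by unadjusted p and fold change, and 0 to 1 with 1 left out. Neighbouring genes called numbered 3, and 1 by total count, 6 without the filter, 1 with limma, 0 in the 2 groups alone, and 0 to 6 with 1 left out. The cause was not tested.

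Same-numbered samples deviated together with r between 0.06 and 0.33 over 15 pairs, and 10 of 11 samples correlated best with their own number, a hint from the data and not from the design. With the replicate block, 1498 genes were called with Tβ-MCA against 1278, 14 signalling genes were lower and 2 higher, and the other lectin genes stood at 4 lower and 1 higher. Of the 4 lower lectin genes 2 were shared with the fit without the block, Clec1b and Olr1. Clec4b2 (adjusted p = 0.0917 with the block) and Clec10a (0.0931) lost their call and Cd72 and Klrb1f gained one, so 2 neighbouring genes were called. Csf1r, not called without the block, was called lower with it (log2 fold change -0.40, edgeR adjusted p = 0.0225).

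In the comparisons with TCA and GCA no receptor was called under any alternative, and signs of small values turned in 11 cases. With the block, Clec4n in TCA against PBS was 0.14 and Clec2d in GCA against PBS 0.040. With 1 sample left out, TCA against PBS ranged from -0.14 to 0.067 for Clec4n, from -0.13 to 0.066 for Clec4d and from -0.038 to 0.064 for Clec4a2. GCA against PBS ranged from -0.42 to 0.0091 for Clec4n and from -0.22 to 0.067 for Clec2d. GCA against TCA ranged from -0.38 to 0.054 for Clec4n and from -0.015 to 0.10 for Clec4e. Intervals of Clec4n in these comparisons rest on 217 to 454 reads per sample and were narrower in fits of the 2 groups alone, which leave out the spread of the Tβ-MCA samples.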
